A study of Mus musculus with 6 samples.

Results

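The genes described here encode the subunits of the mitochondrial respiratory chain and of the ATP synthase, read from arrays of C2C12 cells in which the long noncoding RNA H19 had been knocked down. Members were chosen by name alone, as genes whose probe set carries 1 symbol that begins with Nduf, Uqcr, Atp5 or Cox4 to Cox8, or that is Sdha, Sdhb, Sdhc, Sdhd or Cyc1. This gave 90 of the 19938 genes with 1 symbol on the array: 36 complex I subunits, 7 complex I assembly factors that share the prefix (Ndufaf1 to Ndufaf7), 4 complex II subunits, 9 complex III subunits, 14 complex IV subunits, 3 muscle isoforms of complex IV (Cox6a2, Cox7a1 and Cox8b) and 17 ATP synthase subunits. The complex I list goes by name and so takes in Ndufa4 and Ndufa4l2, described below. Cox7c and Ndufb4 were read only by probe sets that carry a second symbol.

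C2C12 is an established mouse myoblast line that fuses into myotubes when serum is withdrawn. Cells were grown in DMEM with 10% FBS and, near confluence, switched to 2% horse serum. They received either a control siRNA (3 arrays) or an siRNA against mouse H19 (3 arrays) on day 1 of differentiation, and total RNA was taken 40 h later. Both groups were thus transfected, differentiating cells of 1 line, and no source used here says that the 3 arrays of a group stand for separate cultures. The p-values therefore rest on the spread of these samples alone, and that spread may be technical. In such bulk RNA, fewer cells of a type and less RNA per cell cannot be told apart.

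The respiratory chain passes electrons from NADH (complex I) and succinate (complex II) through complex III and cytochrome c to oxygen at complex IV, and complexes I, III and IV pump protons across the inner mitochondrial membrane. The ATP synthase, complex V, lets the protons flow back and makes ATP. Most subunits are encoded in the nucleus and are made in nearly every cell, but complex IV has some subunits with a separate gene for skeletal and cardiac muscle. For Cox6a2, Cox7a1 and Cox8b the muscle gene takes the place of the ubiquitous Cox6a1, Cox7a2 and Cox8a, and this swap accompanies muscle maturation.

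The 250 bases before the start of 4 isoform genes are shown because the comparison below turns on these genes. Of the muscle isoforms, Cox6a2 had no window listed, and the window of Cox7a2 is described below but not printed. The windows shown therefore set only the Cox8 pair side by side. They are from RefSeq (GRCm38.p6), read 5′ to 3′ on the gene's own strand: Cox8b at chr7:140900447-140900696 (minus strand), Cox7a1 at chr7:30183921-30184170 (plus strand), Cox8a at chr19:7217617-7217866 (minus strand) and Cox6a1 at chr5:115348959-115349208 (minus strand). Capitals mark 3 motifs searched on both strands: CAGCTG, an E-box of the type that myogenic factors bind; CGCATGCGC, the core of the NRF1 site; and CCGGAAG, an ETS element of the GABP type.
Cox8b: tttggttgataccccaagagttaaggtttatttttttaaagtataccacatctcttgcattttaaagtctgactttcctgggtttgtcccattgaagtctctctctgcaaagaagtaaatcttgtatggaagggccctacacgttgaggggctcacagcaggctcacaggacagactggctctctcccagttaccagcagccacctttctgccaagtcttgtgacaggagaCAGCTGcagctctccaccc
Cox7a1: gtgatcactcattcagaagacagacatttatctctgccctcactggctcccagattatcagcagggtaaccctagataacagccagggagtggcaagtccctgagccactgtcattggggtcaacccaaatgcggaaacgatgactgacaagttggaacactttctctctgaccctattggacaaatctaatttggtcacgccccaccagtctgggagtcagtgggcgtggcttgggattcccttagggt
Cox8a: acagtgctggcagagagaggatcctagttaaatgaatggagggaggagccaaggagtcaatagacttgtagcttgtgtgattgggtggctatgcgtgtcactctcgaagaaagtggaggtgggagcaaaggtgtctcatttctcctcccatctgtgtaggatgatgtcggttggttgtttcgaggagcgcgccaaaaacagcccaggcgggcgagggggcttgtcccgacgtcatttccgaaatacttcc
Cox6a1: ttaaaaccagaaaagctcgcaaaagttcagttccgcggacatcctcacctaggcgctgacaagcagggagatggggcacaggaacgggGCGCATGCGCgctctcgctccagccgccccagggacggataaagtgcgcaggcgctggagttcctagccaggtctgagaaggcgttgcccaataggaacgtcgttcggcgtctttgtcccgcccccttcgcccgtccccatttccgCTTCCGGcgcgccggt
The Cox8b window held 1 CAGCTG, which began 19 bases before the start, and no NRF1 or ETS match, with a GC content of 47.2%. The Cox6a1 window held 1 site that matches the NRF1 core on both strands, with matches that began 162 and 161 bases before the start, and 1 ETS match 16 bases before it, with a GC content of 62.8%. None of the 3 motifs was found in the windows of Cox7a1, Cox8a or Cox7a2. Within the pairs the GC content was close, at 51.2% for Cox7a1 and 54.8% for Cox7a2, and at 47.2% for Cox8b and 52.8% for Cox8a. Promoters were listed for 73 of the 90 genes (78 promoters, since a gene can have several). The NRF1 core was in 8.97% of these windows against 1.45% of all 32851 windows of the same length, the ETS motif in 16.7% against 6.91%, and CAGCTG in 7.69% against 13.0%. Also searched were the general E-box CANNTG, of which CAGCTG is one form, in 61.5% against 66.2%, and the MEF2 site, in 0 of the 78 windows against 2.92%; neither is marked by capitals. The motifs were picked after the sequences and values had been seen. They describe letters in these windows only, and no binding was measured.

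Values are log2 expression values after robust multi-array averaging (RMA), so a difference of 1 is a 2-fold change. They are comparable between arrays for 1 probe set but not between probe sets. Differences are H19 siRNA minus control siRNA on that scale, tested with limma across all 21559 units of the table (genes and probe sets with several symbols) and called at a Benjamini-Hochberg adjusted p under 0.05. Array medians ranged from 6.73 to 6.78 and correlations between arrays from 0.9958 to 0.9975. H19 has no probe set under its own symbol, and the probe set listed under Mir675, the microRNA inside H19, and under Supt6 read 12.21, 12.22 and 12.27 with control siRNA and 10.38, 10.28 and 10.37 with H19 siRNA. This was a difference of -1.89 (SE 0.04, limma adjusted p = 1.80e-05), so that 26.9% of the control signal of this probe set remained. Any signal of Supt6 in it cannot be told apart.

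None of the 90 genes was called, against 43 of all 21559 units (0.199%). In limma 4 of the 90 (Cox6a2, Cox8b, Ndufa4l2 and Ndufb9) were higher at an unadjusted p under 0.05, against 6.61% of all units, and 2 (Ndufa4 and Ndufb3) were lower, against 4.25% of all units. The 90 differences lay between -0.18 for Ndufb3 and 0.14 for Cox8b and Ndufa4l2, and the smallest limma adjusted p was 0.304, for Cox6a2. On balance 44 genes were higher and 46 lower, with a median difference of -0.0019 against 0.0137 over all units. This split depends on how the arrays are scaled: with each array centred on its median, 33 of the 90 were higher and 57 lower, as the share of higher units over the whole table went from 58.0% to 44.7%. The 95% interval of the difference lay within a 1.5-fold change either way for 90 of 90 genes (99.7% of all units) and within a 1.25-fold change for 87 of 90 (96.7%, against 90.7% of all units).

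**Figure D1:**
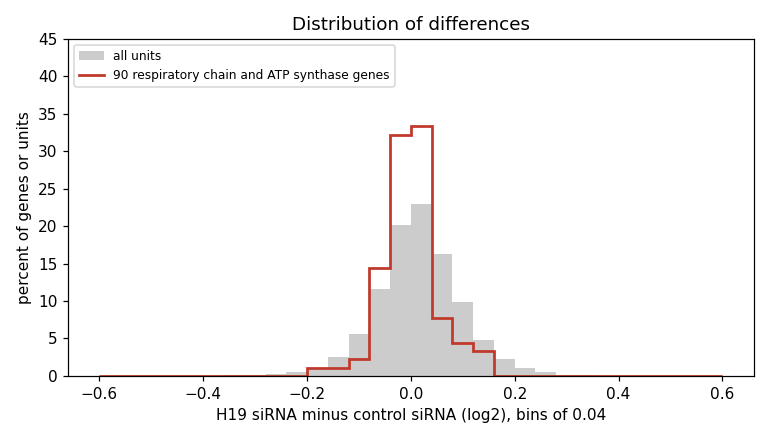
Share of genes (y axis, percent) in bins of 0.04 log2 units of the difference between H19 siRNA and control siRNA (x axis), for all 21559 units (grey) and for the 90 respiratory chain and ATP synthase genes (red). The 90 genes lie between -0.18 and 0.14, and 9 of all units lie beyond the plotted range.

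These genes were also measured with a small spread. The median standard deviation within groups was 0.0382 for the 90 genes and 0.0649 over all units, and the median size of the difference was 0.0300 against 0.0481. A difference of more than 0.1 either way was seen in 7 of the 90 (7.78%), against 20.0% of all units. That background includes dimmer units, and no share over units of like level was counted. The same holds for the interval shares above. Most members were well within the range of the table: 85 of the 90 had a mean above the median of all rows (6.74), and the others were Ndufa4l2, Cox8c, Cox7b2, Cox7a1 and Cox6b2. The values of the 3 control and the 3 H19 siRNA arrays did not overlap for 12 genes that were higher with H19 siRNA (background 10.5%) and for 8 that were lower (background 7.09%). At 13.3% and 8.89% of the 90, both shares lay near those of the whole table.

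**Figure D2:**
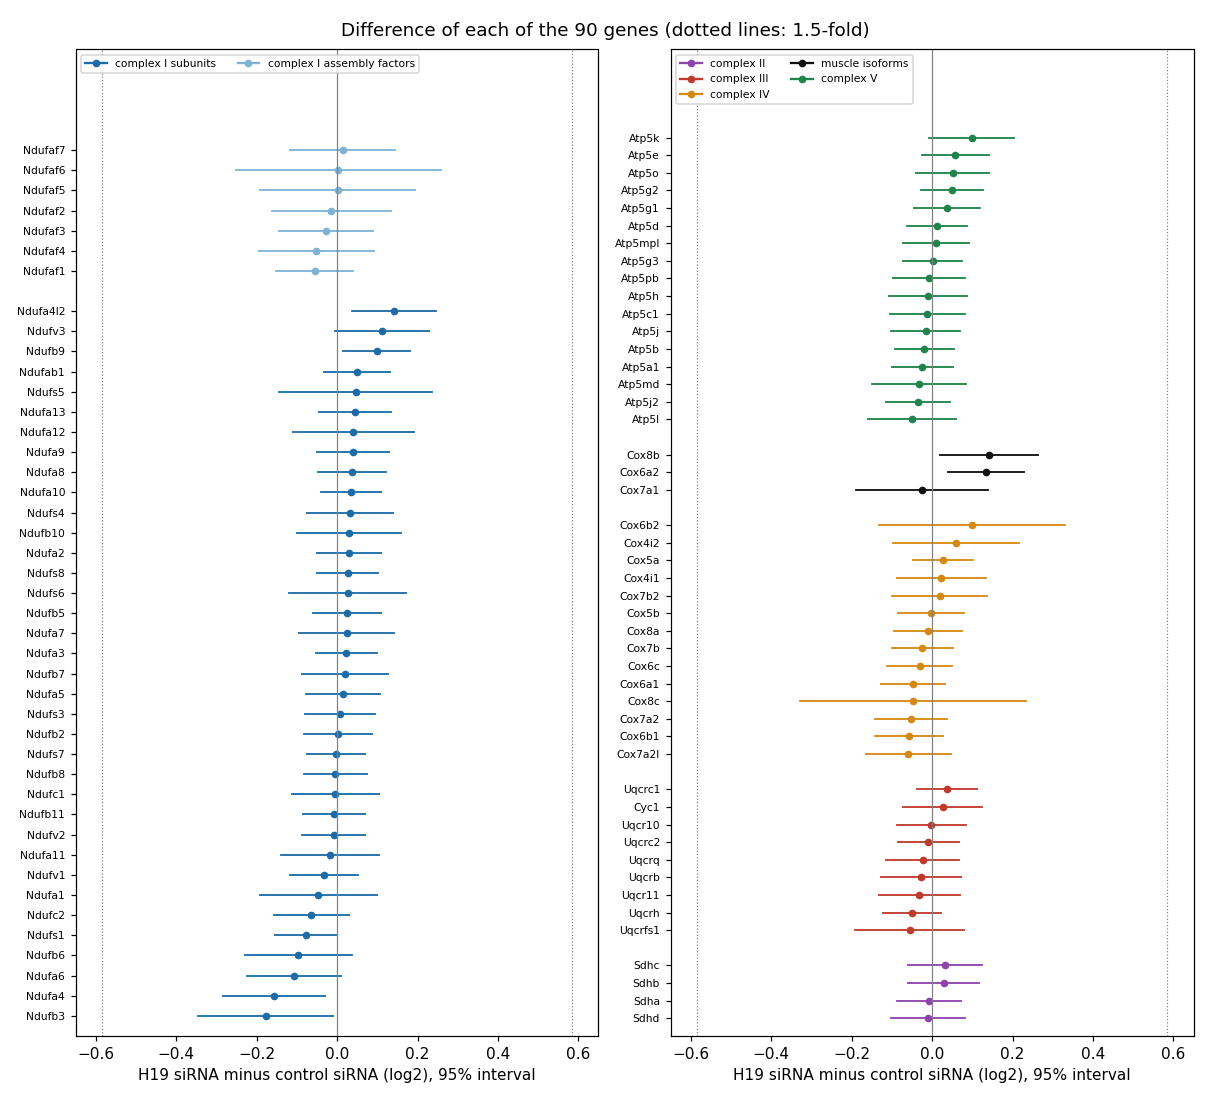
Difference between H19 siRNA and control siRNA (x axis, log2) for each of the 90 genes, grouped by complex, with 95% limma intervals as bars and dotted lines at a 1.5-fold change either way. All 90 intervals lie inside the dotted lines.

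The muscle isoforms of complex IV stood at the upper end of these small differences, except Cox7a1. Cox6a2, the muscle form of subunit VIa, read 9.51, 9.57 and 9.60 with control siRNA and 9.74, 9.69 and 9.67 with H19 siRNA. All 3 H19 siRNA arrays were above all 3 controls, by 0.13 on average (SE 0.04, 95% interval 0.04 to 0.23), a 1.10-fold difference that did not pass (limma adjusted p = 0.304). Cox8b, the muscle form of subunit VIII, read 9.30, 9.26 and 9.23 in the controls and 9.46, 9.31 and 9.44 with H19 siRNA. These groups did not overlap either, and the difference of 0.14 (SE 0.05, 95% interval 0.02 to 0.26) was again about 1.10-fold and not called (limma adjusted p = 0.394). Cox7a1, the muscle form of subunit VIIa, read 6.36, 6.36 and 6.55 in the controls and 6.30, 6.46 and 6.44 with H19 siRNA. It lay below the median of the table, its groups overlapped and its difference was -0.03 (95% interval -0.19 to 0.14, limma adjusted p = 0.922).

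Their ubiquitous partners lay close to no difference or slightly below it. Cox6a1 read 11.14, 11.17 and 11.20 in the controls and 11.13, 11.13 and 11.11 with H19 siRNA, a difference of -0.05 (95% interval -0.13 to 0.03, limma adjusted p = 0.657). The groups were apart by less than the spread within the controls. Cox7a2 read 10.97, 11.04 and 11.04 against 10.98, 10.93 and 10.98, a difference of -0.05 (limma adjusted p = 0.656), and Cox8a read 12.03, 11.97 and 12.05 against 12.03, 11.99 and 12.00, a difference of -0.01 (limma adjusted p = 0.939). Both of these pairs of groups overlapped.

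Setting each muscle gene against its partner on the same array shows whether the pair changed unequally. It does not show which isoform is more abundant, because the probe sets differ. Cox6a2 minus Cox6a1 was -1.63, -1.60 and -1.59 in the controls and -1.39, -1.44 and -1.44 with H19 siRNA. The means were -1.61 ± 0.02 and -1.43 ± 0.03 (SD, n = 3 arrays each), so the ratio of the pair was 1.13-fold higher, with no overlap. Cox8b minus Cox8a was -2.73, -2.71 and -2.82 in the controls and -2.56, -2.69 and -2.56 with H19 siRNA, a ratio 1.11-fold higher, again with no overlap. In Cox7a1 minus Cox7a2 the groups overlapped, with means of -4.59 ± 0.10 and -4.57 ± 0.11 (SD, n = 3 arrays each). The exact two-sided permutation test gave p = 0.1 for each of the first 2 pairs and p = 0.7 for the third, or 0.15, 0.15 and 0.7 after Benjamini-Hochberg adjustment over the 3 pairs. With 3 arrays against 3 the smallest p this test can give is 0.1, so no pair could pass.

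**Figure D3:**
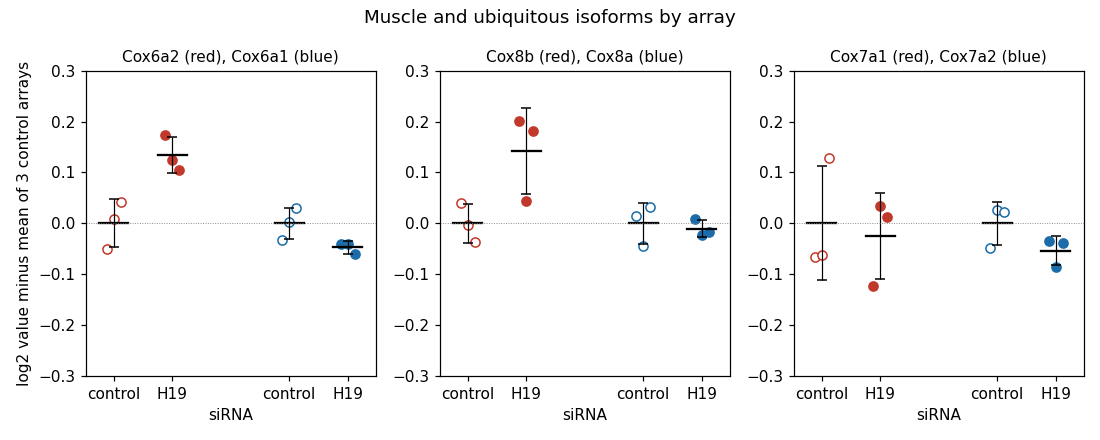
Log2 value of each array minus the control mean of the same gene (y axis) for the 3 isoform pairs of complex IV, muscle gene in red and ubiquitous gene in blue, with control siRNA arrays as open and H19 siRNA arrays as filled points and mean ± SD as bars. Cox6a2 and Cox8b lie above their control arrays on all 3 H19 siRNA arrays, and Cox7a1 does not.

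Most muscle marker genes outside the respiratory chain lay on the same side as Cox6a2 and Cox8b. Of 8 skeletal muscle markers, 7 were higher with H19 siRNA, against 58.0% of all units, and Myh3 was lower, at -0.03. In limma 5 were higher at an unadjusted p under 0.05 (Myog, Myod1, Mb, Acta1 and Tnnt3), against 6.61% of all units. None was called. The mean level of the list was 10.86 to 10.87 in the controls and 10.97 to 11.01 with H19 siRNA, with a median difference of 0.10. Myog, a transcription factor of muscle differentiation, differed by 0.22 (limma adjusted p = 0.0779) and Mb, the oxygen store myoglobin, by 0.20 (limma adjusted p = 0.143). The part of muscle differentiation in the Cox6a2 and Cox8b values was not tested. Cox6a2 and Cox8b are also known from heart and, for Cox8b, from brown fat. Of 6 heart markers 3 were higher and 3 lower (2 and 4 under either other scaling), with list means of 7.17 to 7.20 in the controls and 7.16 to 7.28 with H19 siRNA. Of 6 brown adipocyte markers 5 were higher (4 under either other scaling) and 1 was called: Dio2, a deiodinase that muscle cells also make, at 0.43 (limma adjusted p = 0.0227). Of this list Ucp1 and Cidea had mean values of 5.01 and 5.23 with control siRNA and 5.06 and 5.23 with H19 siRNA. These lay below the 30th percentile of the table (5.449). The other markers of the list lay above it. Elovl3, Prdm16, Zic1 and Dio2 had means of 6.77, 6.58, 8.92 and 9.10 with control siRNA. With H19 siRNA their means were 6.93, 6.56, 8.98 and 9.53. White adipocyte markers had list means of 5.31 to 5.42 in the controls and 5.35 to 5.53 with H19 siRNA. Macrophage and leukocyte markers ranged in list mean from 5.81 to 5.84 in the controls and from 5.79 to 5.85 with H19 siRNA. Of these 5 genes 2 were higher and 3 lower, and none was called. Cd68 had means of 8.05 with control siRNA and 7.86 with H19 siRNA, without overlap, a difference of -0.19 (limma adjusted p = 0.278). Of the interferon response genes all 6 measured were higher and 4 rose in the test (Ifit1, Ifit3, Oasl2 and Usp18), with list means of 8.17 to 8.21 in the controls and 8.76 to 8.79 with H19 siRNA. The part of that response in the values of the respiratory genes was not tested.

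The 36 genes listed by name as complex I subunits were higher in 22 cases and lower in 14, with a median of 0.0216 (18 and 18 after median centring), and none was called. Of the catalytic core 6 nuclear genes were measured (Ndufv1, Ndufv2, Ndufs1, Ndufs3, Ndufs7 and Ndufs8), 2 of them higher and 4 lower, with a median of -0.0055. Ndufs1, the largest core subunit and a carrier of iron-sulfur clusters, read 10.41, 10.39 and 10.37 in the controls and 10.30, 10.30 and 10.33 with H19 siRNA. The groups did not overlap, and the difference was -0.08 (limma adjusted p = 0.465). Ndufv1, which binds NADH and FMN, differed by -0.03 (limma adjusted p = 0.783), and Ndufs8, another iron-sulfur subunit, by 0.03 (limma adjusted p = 0.809).

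The 30 genes listed by name as accessory subunits, most of which surround the core, were higher in 20 cases and lower in 10, with a median of 0.0242. Ndufa4 and Ndufa4l2 are counted among them. Ndufb3, an accessory subunit of the membrane arm, read 7.69, 7.74 and 7.60 in the controls and 7.58, 7.35 and 7.56 with H19 siRNA. It had the most negative difference of the 90 genes, at -0.18 (SE 0.07, 95% interval -0.35 to -0.0094, limma adjusted p = 0.435), and H19 siRNA replicate 2 lay apart from the other arrays of its group. Without that array the difference was -0.10, and that of Ndufa4, described below, was -0.14, so the order of these genes rests on it. Ndufb9, also of the membrane arm, read 11.66, 11.71 and 11.72 in the controls and 11.79, 11.77 and 11.82 with H19 siRNA, a difference of 0.10 with tight groups (SE 0.04, limma adjusted p = 0.391). Ndufa6 and Ndufv3 differed by -0.11 and 0.11 (limma adjusted p = 0.497 and 0.479). Probe sets disagreed in sign for Ndufa11, with differences of -0.018 and 0.046.

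A related pair of genes in the complex I list lay on opposite sides. Ndufa4 carries a complex I name but is now placed at complex IV, and Ndufa4l2 is its hypoxia-induced relative. Ndufa4 read 11.21, 11.34 and 11.17 in the controls and 11.11, 11.04 and 11.09 with H19 siRNA. The groups did not overlap, and the difference was -0.16 (SE 0.05, 95% interval -0.28 to -0.03, limma adjusted p = 0.363). Ndufa4l2 read 6.30, 6.30 and 6.36 in the controls and 6.42, 6.53 and 6.43 with H19 siRNA, also without overlap, a difference of 0.14 (SE 0.04, 95% interval 0.04 to 0.25, limma adjusted p = 0.319). Its level was below the median of the table. Neither gene passed the test across all units.

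The 7 complex I assembly factors, which build the complex and are not part of it, were higher in 3 cases and lower in 4, with a median of -0.0148 (0 and 7 after median centring). Ndufaf1 read 9.74, 9.82 and 9.72 in the controls and 9.71, 9.67 and 9.73 with H19 siRNA, a difference of -0.06 (limma adjusted p = 0.667). The groups overlapped. At the other end of the list Ndufaf7, a methyltransferase that modifies a core subunit, differed by 0.01 (limma adjusted p = 0.951). This group varied from array to array: the median deviation of its genes from their means was -0.018, -0.114 and 0.082 on the 3 H19 siRNA arrays.

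Complex II, the succinate dehydrogenase shared with the citrate cycle, had differences between -0.0096 and 0.03. Sdha, the flavoprotein that oxidises succinate, read 11.83, 11.86 and 11.82 in the controls and 11.81, 11.82 and 11.86 with H19 siRNA, a difference of -0.0077 (limma adjusted p = 0.954). Sdhb, the iron-sulfur subunit, read 10.80, 10.83 and 10.80 against 10.89, 10.80 and 10.83, a difference of 0.03 (limma adjusted p = 0.824). Sdhc and Sdhd, the membrane anchors, differed by 0.03 and -0.0096 (limma adjusted p = 0.807 and 0.951). In all 4 genes the groups overlapped.

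In complex III 2 of 9 genes were higher and 7 lower, with a median of -0.0237 that was -0.0012 without H19 siRNA replicate 2. Cyc1, the cytochrome c1 that hands electrons to cytochrome c, read 11.79, 11.81 and 11.81 in the controls and 11.86, 11.75 and 11.86 with H19 siRNA, a difference of 0.03 (95% interval -0.07 to 0.12, limma adjusted p = 0.861). Uqcrfs1, the Rieske iron-sulfur protein, read 9.62, 9.70 and 9.60 against 9.64, 9.47 and 9.63, a difference of -0.06 (limma adjusted p = 0.769). Its groups overlapped, and replicate 2 of H19 siRNA was again the lowest array, without which the difference was -0.0012. Uqcrh, the hinge subunit next to Cyc1, had tight groups that did not overlap, at 11.88, 11.90 and 11.90 against 11.85, 11.84 and 11.85, a difference of -0.05 (95% interval -0.12 to 0.02, limma adjusted p = 0.612). Uqcrc1, a core structural subunit, differed by 0.04 (limma adjusted p = 0.725).

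In complex IV, without the muscle isoforms and Ndufa4, 5 of 14 genes were higher and 9 lower, with a median of -0.0174. The 10 ubiquitous subunits were lower in 8 cases under each of the 3 scalings, with a median of -0.0277, and none was called. Cox6b1, which faces the intermembrane space where cytochrome c docks, read 12.12, 12.11 and 12.15 in the controls and 12.10, 12.03 and 12.08 with H19 siRNA. These groups did not overlap, and the difference was -0.06 (limma adjusted p = 0.620). Cox7a2l, which helps join complexes III and IV into supercomplexes, also differed by -0.06 (limma adjusted p = 0.682), Cox6c by -0.03 (limma adjusted p = 0.788) and Cox5a by 0.03 (limma adjusted p = 0.802). The isoforms best known from other tissues (Cox4i2, Cox6b2, Cox7b2 and Cox8c) were higher in 3 of 4 cases but varied more, with a median within-group standard deviation of 0.12. Cox6b2, a testis isoform, read 5.62, 5.56 and 5.77 in the controls and 5.75, 5.93 and 5.57 with H19 siRNA, a difference of 0.10 whose 95% interval ran from -0.13 to 0.33 (limma adjusted p = 0.764).

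In the ATP synthase 8 of 17 genes were higher and 9 lower, with a median of -0.0083 (5 and 12 after median centring). The catalytic F1 head (5 genes) had a median of -0.0116. Atp5b, the catalytic beta subunit, had small spreads, at 13.72, 13.73 and 13.74 in the controls and 13.71, 13.71 and 13.71 with H19 siRNA, a difference of -0.02 (95% interval -0.09 to 0.05, limma adjusted p = 0.860). Atp5a1, its alpha partner, differed by -0.02 (limma adjusted p = 0.831) and Atp5e, the small epsilon subunit, by 0.06 (limma adjusted p = 0.612). All 3 genes of the proton-driven c-ring (Atp5g1, Atp5g2 and Atp5g3) were higher, with a median of 0.0368, although Atp5g3 turned lower under both other scalings. Atp5g2 had the greatest difference of these 3, at 0.05 (limma adjusted p = 0.629).

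The peripheral stalk, which holds the head still, had a median of -0.0089 over 4 genes, of which Atp5o differed by 0.05 (limma adjusted p = 0.682). Among the small membrane subunits, Atp5k and Atp5l, which take part in pairing the enzyme into dimers, lay at the ends of the list. Atp5k read 8.28, 8.31 and 8.35 in the controls and 8.40, 8.35 and 8.48 with H19 siRNA, a difference of 0.10 (95% interval -0.0072 to 0.20, limma adjusted p = 0.493). Atp5l read 10.51, 10.51 and 10.45 against 10.49, 10.36 and 10.48, a difference of -0.05 (95% interval -0.16 to 0.06, limma adjusted p = 0.747). The 6 probe sets of Atp5l gave differences from -0.066 to -0.028. For Atp5h and Atp5pb, both of the stalk, the probe sets disagreed in sign, with differences of -0.010, 0.007 and 0.008 for Atp5h and of -0.008 and 0.022 for Atp5pb.

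Over all 90 genes the 2 groups overlapped from array to array. The median deviation of the 90 genes from their own means was -0.012, 0.0052 and -0.0030 in the controls and 0.0018, -0.018 and 0.020 with H19 siRNA. H19 siRNA replicates 2 and 3 gave the lowest and the highest value. Replicate 2 of H19 siRNA was the lowest of the 6 arrays for 34 of the 90 genes (37.8%, against 25.9% of all units), and replicate 3 the highest for 29 (32.2%, against 19.6%). Replicate 2 of H19 siRNA also had the lowest mean correlation with the other arrays, at 0.99617. The median of the 3 muscle isoforms did separate by group, at -0.055, -0.058 and -0.025 in the controls and 0.107, 0.047 and 0.037 with H19 siRNA. Of these 3 genes Cox6a2 and Cox8b separate on their own, and Cox7a1 overlaps. The complex IV median separated too, in the other direction and by far less, with -0.0012, 0.0020 and 0.012 against -0.012, -0.017 and -0.0054.

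**Figure D4:**
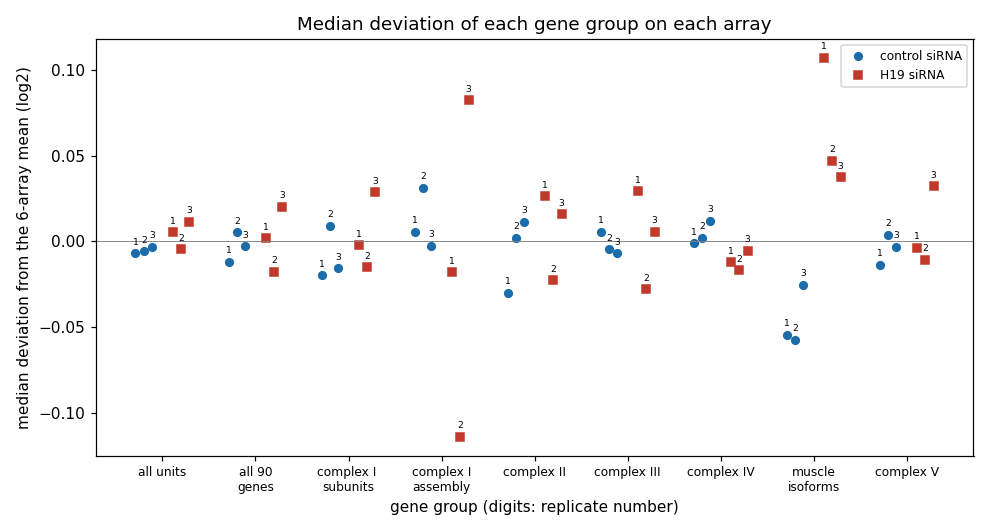
Median deviation (y axis, log2) of the genes of each group from their own means over the 6 arrays, for each array, with the digit giving the replicate number and the 2 siRNA groups shown side by side. The median of the 3 muscle isoforms separates the groups, although Cox7a1 alone overlaps, while the median of the 90 genes does not.

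The other genes on which the respiratory chain depends were read from lists. Of the 13 subunits encoded in mitochondrial DNA 2 were measured: COX2, which holds the copper site that accepts electrons, differed by 0.0033 (limma adjusted p = 0.985) and ND3 by -0.0075 (limma adjusted p = 0.976). Of 35 measured assembly factors outside the naming rule, 16 were higher and 19 lower, none was called (10 higher and 25 lower after median centring), and 1 had an unadjusted p under 0.05. This was Sdhaf4, which helps assemble succinate dehydrogenase, at 8.65, 8.76 and 8.66 in the controls and 8.43, 8.26 and 8.64 with H19 siRNA, a difference of -0.25 (95% interval -0.47 to -0.02, limma adjusted p = 0.414). With the mean of the gene's probe sets in place of the brightest one, the difference was -0.04 (limma adjusted p = 0.867). Cox10, which makes the haem of complex IV, differed by 0.07 (limma adjusted p = 0.584).

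Of 21 regulators of mitochondrial biogenesis 13 were higher and 8 lower (8 and 13 after median centring), with a median of 0.0098, and none was called. Ppargc1a, the coactivator PGC-1 alpha that drives mitochondrial genes in oxidative muscle, had the smallest p of this list. It read 7.06, 7.01 and 7.12 in the controls and 7.24, 7.19 and 7.22 with H19 siRNA, with no overlap and a difference of 0.15 (SE 0.04, 95% interval 0.06 to 0.25, limma adjusted p = 0.257). The transcription factors through which it acts showed smaller differences: Nrf1 0.01 (limma adjusted p = 0.928), Gabpa -0.0095 (0.964) and Esrra 0.0045 (0.987). Tfam, the mitochondrial DNA packaging factor, differed by 0.09 (limma adjusted p = 0.608), Polg2, a subunit of the mitochondrial DNA polymerase, by -0.08 (limma adjusted p = 0.603), the related coactivator Ppargc1b by -0.0026 (limma adjusted p = 0.992) and Cycs, cytochrome c, by 0.0041 (limma adjusted p = 0.983).

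The citrate cycle and pyruvate dehydrogenase, which supply the chain with electrons, had 9 of 18 measured genes higher and 9 lower (3 and 15 after median centring), with a median of -0.0023 and none called. Sucla2, a subunit of the ADP-forming succinyl-CoA synthetase, read 10.59, 10.56 and 10.60 in the controls and 10.46, 10.47 and 10.51 with H19 siRNA. The groups did not overlap, and the difference was -0.10 (95% interval -0.18 to -0.02, limma adjusted p = 0.363). Dlat, the acetyltransferase of pyruvate dehydrogenase, differed by -0.07 (limma adjusted p = 0.630).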

How the data were processed

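The authors deposited 1 log2 value per probe set for each Affymetrix Mouse Gene 1.0 ST array, made with RMA in Expression Console per the submitters' processing notes. Its version is not given in the sources used here. RMA corrects background, equalises the arrays' distributions and averages probes, which compresses small differences near background. Scanner signals and detection calls were not used here. GEO's platform annotation gave the gene of each probe set. For the 999 genes with several, the probe set with the highest mean stood for the gene (17 of the 90 described here).

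The 2 siRNA groups were compared in R 4.3.3 with limma 3.58.1 (lmFit, then eBayes). This two-sided fit took all 21559 units of all 6 arrays, with no covariate and no filter. P-values were adjusted over all units by the Benjamini-Hochberg method. The procedure was tested on simulated data. Intervals are 95% limma intervals, and the number of arrays limits precision.

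The members and gene lists were chosen with earlier results of these data known. Genes were named by rule: the isoform pairs, complex II, Cyc1, the extremes and smallest p of each complex, members whose probe sets disagree, 7 regulators, and the 2 smallest p of each context list. Ndufa4, Ndufb9, Ndufs1, Ndufs8, Ndufv1, Ndufv3, Ndufa6, Cox5a, Cox6c, Atp5a1, Atp5b, Atp5e, Atp5o, Atp5g1, Atp5g2 and Atp5g3, and the marker genes named, fall outside it and were chosen after their values were seen. Promoter windows came from RefSeq. Alternatives covered the variance model, dim probe sets, scaling, probe set choice, the replicate number as a block and leaving out each array. Genes without a probe set of 1 symbol were not analysed here.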

Additional observations from a re-analysis of the deposited data

How the results depend on the processing

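None of the 90 genes was called in limma under any of the 13 alternatives, and their smallest adjusted p ranged from 0.0611 (Ndufb9, with an intensity trend and robust variance) to 0.577. Over all units 435 of 21559 were called with that trend, and 214 of 12290 when units below the median level were left out. Without 1 array only 1 to 21 of 21559 units were called, so a count of 0 among 90 genes says little there. With the intensity trend 13 of the 90 had an unadjusted p under 0.05, against 6 without it (14.4%, against 12.6% of all units). Leaving out each array in turn gave 3 to 7 such genes. The 3 were without control replicate 2 (3.33%, against 7.72% of all units). The 7 were without H19 siRNA replicate 3 (7.78%, against 11.6% of all units). It gave 25 to 34 genes whose groups do not overlap, with 32 without H19 siRNA replicate 2 and 34 without H19 siRNA replicate 3. Groups with fewer arrays separate more easily by chance, so these counts cannot be compared with the 20 from all arrays. Leaving out an array took the median of the 90 genes from -0.0095 to 0.0125 and of the complex I subunits from -0.0033 to 0.0197. The ranges were -0.0178 to -0.0012 for complex III, -0.0186 to -0.0072 for complex IV, -0.0098 to 0.0078 for complex V and -0.0704 to 0.0213 for the assembly factors. Centring each array on its median, which moves the median of all units from 0.0137 to -0.0087, gave medians of -0.0243 for the 90 genes, -0.0461 for complex III, -0.0398 for complex IV, -0.0307 for complex V and -0.0372 for the assembly factors. Averaging probe sets gave 0.0018 for complex V. Cox7a1 minus Cox7a2 ranged from -0.0176 to 0.0860 without 1 array, with a change of sign without control replicate 2 or H19 siRNA replicate 2. The replicate numbers did not pair the arrays (correlations of deviations -0.0172, -0.1342 and -0.1356). With the replicate number as a block, 3 units in all were called and none of the 90, and the limma adjusted p of Cox6a2 was 0.582 and of Cox8b 0.567. The exact paired p was 0.25, 0.25 and 1.0 for the Cox6a2, Cox8b and Cox7a1 pairs. With 3 replicate numbers the smallest p that the paired test can give is 0.25. Of 55 named genes followed through the alternatives 40 kept their sign under every alternative run. Atp5g3 and the marker genes were not among these 55. The variance model, the filters and the replicate block leave the difference itself unchanged, so no sign could turn under them. Signs that turned belonged to differences near 0. Averaging probe sets gave 0.0018 for Atp5h, 0.0068 for Atp5pb, 0.0238 for ND3 and 0.0143 for Ndufa11. Centring gave -0.0191 for COX2, -0.0182 for Cycs, -0.0179 for Esrra, -0.0089 for Ndufaf7 and -0.0079 for Nrf1. A second quantile normalisation gave -0.0182 for COX2, -0.0080 for Cycs and 0.0011 for Ppargc1b. Without 1 array the ranges crossed 0 for Atp5h (-0.0312 to 0.0192), Atp5pb (-0.0332 to 0.0125), COX2 (-0.0266 to 0.0276), Cox7a1 (-0.0587 to 0.0396), Cox8a (-0.0333 to 0.0052), Cycs (-0.0246 to 0.0235), Esrra (-0.0316 to 0.0580), Gabpa (-0.0396 to 0.0283), ND3 (-0.0580 to 0.0282), Ndufa11 (-0.0629 to 0.0135), Ndufaf7 (-0.0243 to 0.0638), Nrf1 (-0.0181 to 0.0351), Ppargc1b (-0.0432 to 0.0349), Sdha (-0.0211 to 0.0038) and Sdhd (-0.0321 to 0.0160). The cause of these changes was not tested.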

Other observations

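Some probe sets of subunit genes carry a second symbol, so signal of a related copy cannot be told apart there. Cox7c, a small complex IV subunit, shares 3 probe sets with the related locus Gm12338, and their differences were 0.0032, 0.0036 and 0.0028. Ndufs5, an accessory subunit of complex I, is measured among the 90 genes by a probe set of its own, at 0.05, and a further probe set that it shares with a pseudogene gave 0.015. Ndufb4, of the membrane arm, shares 2 probe sets with Ndufb4b, at -0.022 and -0.024. The limma adjusted p of these 6 probe sets lay between 0.834 and 0.985.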
